A study of Mus musculus with 6 samples.

Results

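The chemokine ligands Cxcl9, Cxcl10, Cxcl11 and Cxcl16 and the receptors Cxcr3 and Cxcr6 were followed in omental and mesenteric adipose tissue macrophages of mice before and after injection of ovarian cancer cells. The 6 genes were chosen by symbol as 2 receptors with their ligands, and all 6 were found among the 23946 genes of the deposited table. All also reached 1 FPKM (fragments per kilobase of transcript, scaled to the aligned reads of the library) in at least 1 library, the level at which 13064 genes were counted as expressed.

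CXCR3 is a chemokine receptor of activated T cells, NK cells and some other lymphoid cells. Its ligands CXCL9, CXCL10 and CXCL11 are small secreted proteins that macrophages, stromal cells and epithelial cells make when exposed to interferons. CXCL9 depends most on interferon-gamma, the cytokine of NK cells and T cells, while CXCL10 is also made in response to type I interferons and to NF-kB activators. CXCL16, the ligand of CXCR6, differs from them in being made as a membrane-bound protein that also acts as a scavenger receptor for oxidised lipids and is shed from macrophages by the proteases ADAM10 and ADAM17. CXCR6 marks tissue-resident T cells, NKT cells, innate lymphoid cells and liver NK cells. In C57BL/6 mice the Cxcl11 gene carries a frameshift, so that its transcript does not encode a functional chemokine.

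The mice were C57BL/6 females of 6 to 8 weeks, either naive (0 h, without injection) or taken 24 h or 7 d after intraperitoneal injection of ID8 cells, a mouse ovarian carcinoma line of the same background. Live cells positive for CD45, CD11b and the macrophage antigen encoded by Emr1 were sorted from omental (OM) and mesenteric (MY) tissue, giving 6 conditions with 1 library each. The omenta of 9 mice were handled as 3 groups of 3, so an omental library pools mice, and whether the mesenteric library of a time came from the same animals is not stated. No library of mice injected with carrier alone was analysed here, so the effect of the cancer cells and that of an injection cannot be told apart. With 1 library per condition no value has a replicate error and no test between conditions was possible, and each difference describes the libraries compared. Differences are given as log2(FPKM + 1), where genes at low FPKM change by less than their FPKM ratio says, and a gene was counted as higher or lower from a difference of 2-fold on that scale.

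RNA of genes that mark other cell types was present in the sorted cells. The summed FPKM of 9 genes listed for macrophages, with Ptprc (CD45) among them, lay between 3169 and 27150. The top value was in OM 24h, and most of the sum came from the lysozyme gene Lyz2 (2571 to 24780). Emr1 and Itgam, which encode sort antigens, lay between 20.5 and 135.0 and between 27.8 and 150.9, while Mertk, another macrophage gene, stayed between 2.13 and 13.6. Markers of other types were also present: the summed FPKM of 8 NK cell markers ranged from 28.6 to 862, of 10 T cell markers from 31.8 to 1508, of 6 B cell markers from 563 to 4093 and of 6 neutrophil markers from 241 to 14580. The 8 mesothelial markers summed to 99.3, 1016 and 1010 in the omental libraries at 0 h, 24 h and 7 d and to at most 1.33 in the mesentery. They include keratin genes that are not specific against the injected ID8 cells, an epithelial cancer line. The 6 fibroblast markers summed to 345, 221 and 1190 in the omentum and to at most 3.10 in the mesentery. In such bulk RNA, fewer cells of a type and less RNA per cell cannot be told apart. A rough estimate from the steps of low values placed the depth of the other libraries between 0.857 and 1.49 times that of MY 0h.

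Cxcl9, Cxcl10 and Cxcl11 lie next to each other on the minus strand of chromosome 5, within 44155 bases (NCBIM37/mm9, GENCODE M1). Cxcl9 spans chr5:92750357-92757105, Cxcl10 chr5:92775664-92777915 and Cxcl11 chr5:92788570-92794511. The last is annotated as a processed transcript and the others as protein coding. Cxcl16 (chr11:70267485-70273486, minus strand), Cxcr3 (chrX:98926874-98929608, minus strand) and Cxcr6 (chr9:123715595-123720872, plus strand) stand apart from them. RefSeq promoter sequences (GRCm38.p6) matched 4 of the 6 genes, and the 250 bases before the start were searched on both strands for a core of the interferon response element (GAAANNGAA), a gamma-activated site (TTCNNNGAA) and an NF-kB site (GGANNTTCC). The promoters of the 2 ligands with an entry are shown, because both genes differed from naive omentum by over 2-fold at both times after injection. Both are on the minus strand and written 5′ to 3′ up to the base before the start, Cxcl9 at chr5:92328080-92328329 and Cxcl10 at chr5:92348890-92349139. Capitals mark the motif matches.
Cxcl9: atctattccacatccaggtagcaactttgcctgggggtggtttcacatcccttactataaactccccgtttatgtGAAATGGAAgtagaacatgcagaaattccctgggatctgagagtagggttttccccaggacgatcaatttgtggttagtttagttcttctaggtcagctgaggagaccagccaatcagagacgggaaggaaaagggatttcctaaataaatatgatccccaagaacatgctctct
Cxcl10: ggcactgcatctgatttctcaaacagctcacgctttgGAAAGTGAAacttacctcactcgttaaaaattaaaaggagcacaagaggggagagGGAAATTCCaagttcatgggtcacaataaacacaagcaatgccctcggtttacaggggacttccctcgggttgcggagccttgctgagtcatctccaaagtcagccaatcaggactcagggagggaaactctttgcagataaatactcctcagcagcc

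The Cxcl9 promoter held GAAATGGAA, a match to the interferon response core. The Cxcl10 promoter held GAAAGTGAA, another match to that core, and nearer the start GGAAATTCC, a match to the NF-kB site. No match to the gamma-activated site was found in either window, and the windows of Cxcr3 and Cxcr6 held none of these letters. Among 32851 mouse promoters of the same length, 7.13% held the interferon response core, 7.02% the gamma-activated site and 3.59% the NF-kB site. A match is a description of letters, sites that depart from these patterns are missed, and no binding was measured.

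The 3 CXCR3 ligands were higher in the injected omentum than in the naive omentum at both times, and none was higher by 2-fold at any time in the mesentery. Cxcl10 stood at 12.1, 124.2 and 116.5 FPKM in the omentum at 0 h, 24 h and 7 d and at 35.1, 21.2 and 13.9 in the mesentery. Both injected omental libraries were far above the other 4, and the naive omentum was the lowest of all. Cxcl10 was thus 10.2-fold higher in FPKM in OM 24h than in OM 0h, a log2 difference of 3.25 that exceeded those of 99.3% of expressed genes, and was still 3.16 higher at 7 d. In the mesentery the differences from naive were -0.70 at 24 h and -1.28 at 7 d. The order of the tissues turned accordingly, with OM below MY by 2.89-fold when naive (log2 -1.46) and above it by 2.50 and 2.98 on the log2 scale at 24 h and 7 d.

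Cxcl9, the other interferon-gamma-associated ligand of CXCR3, followed the same course in the omentum from a lower level. Its FPKM was 8.20, 32.3 and 32.2 in the omentum at 0 h, 24 h and 7 d and 6.65, 7.75 and 5.50 in the mesentery. The injected omental libraries were high, and the other 4 libraries lay close together. The log2 difference from naive omentum was 1.86 at 24 h and 1.85 at 7 d, and in the mesentery 0.19 and -0.23. OM 24h exceeded MY 24h by 1.93 and OM 7d exceeded MY 7d by 2.35, while the naive libraries differed by only 0.27. The ratio of Cxcl10 to Cxcl9 was 1.48 in naive omentum and 3.85 and 3.62 in injected omentum, whereas in the mesentery it was 5.28 when naive and 2.73 and 2.52 after injection.

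Cxcl11 was close to the limit of what the table lists. Its FPKM was 0, 1.03 and 2.17 in the omentum and 0.178, 0.0132 and 0 in the mesentery. The injected omental libraries held the only values of at least 1. No fold is given against OM 0h or MY 7d, where the gene is listed at 0, and a listed 0 need not mean an absence of reads: Cd74, the invariant chain of MHC class II, is listed at 0 in OM 24h but at 26905 in OM 0h. Cxcl11 passed 2-fold against naive omentum at both times with a pseudocount of 1 and at neither with a pseudocount of 5.

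**Figure D1:**
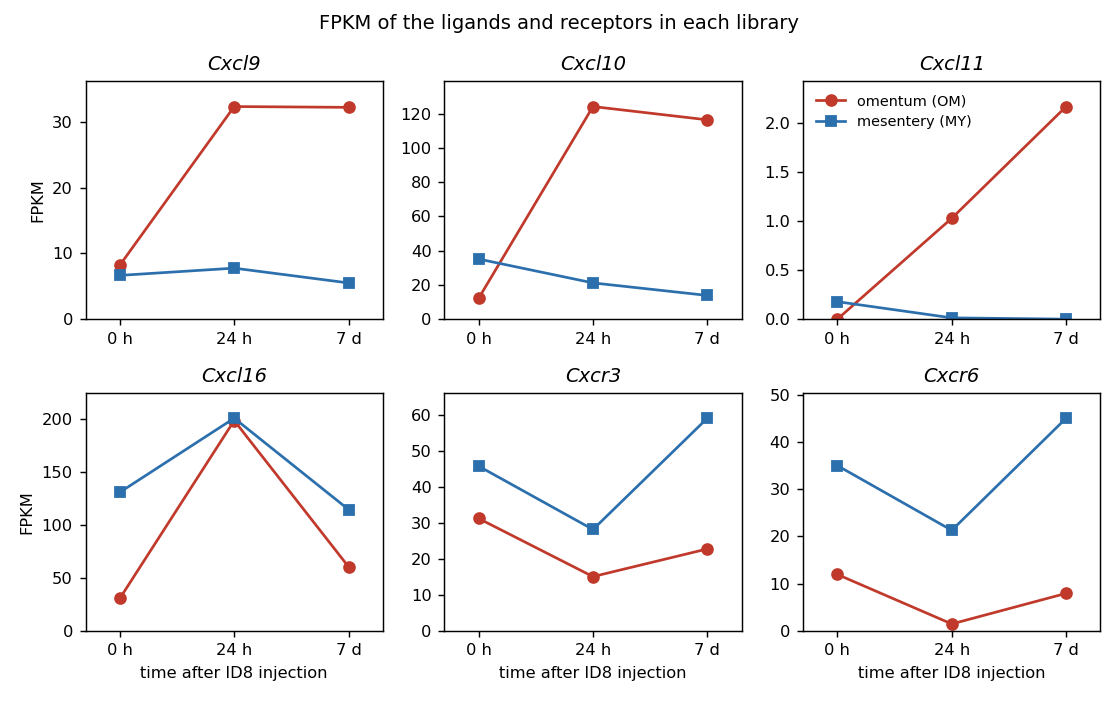
FPKM (linear axes from 0) of each ligand and receptor against time after ID8 injection, with 1 point per library, the omentum in red circles and the mesentery in blue squares. Cxcl9 and Cxcl10 reached 32.3 and 124.2 in OM 24h and stayed near these values at 7 d, Cxcl16 peaked at 24 h in both tissues, and both receptors were lowest at 24 h in both tissues.

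Cxcl16, the CXCR6 ligand, had another time course. It measured 30.6, 198.6 and 60.4 FPKM in the omentum and 130.9, 200.9 and 114.5 in the mesentery. Naive omentum was the lowest library, and the tissues met at 24 h before both were lower again at 7 d. Cxcl16 was 6.49-fold higher in FPKM in OM 24h than in OM 0h (log2 2.66) and then -1.70 from OM 24h to OM 7d, so that OM 7d was 0.96 above naive. This value lay just under 2-fold and passed it after rescaling the libraries (1.01 by the median ratio, 1.11 to equal sums). In the mesentery the differences were 0.61 at 24 h and -0.19 at 7 d. Between tissues Cxcl16 was 4.28-fold higher in MY 0h than in OM 0h (log2 -2.06 for OM), level at 24 h (-0.02, of a sign that changes with the scaling) and -0.91 at 7 d. The 9 genes listed for macrophages include Ptprc, which encodes CD45 and is not particular to macrophages. Ptprc alone was lower from 0 h to 24 h in the omentum (-0.78) and higher from 24 h to 7 d (0.23). The 9 genes had a median of 1.81 from 0 h to 24 h and -2.23 from 24 h to 7 d in the omentum. In the mesentery these medians were 0.67 and -0.70. Between tissues their medians for OM against MY were 0.77, 1.52 and 0.23, unlike Cxcl16. The part of macrophages in the Cxcl16 differences was not tested.

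Some of these genes overlap others on the opposite strand, and since the use of strand in the counting is not stated, reads of shared parts cannot be told apart. Zmynd15 shares 552 exonic bases with Cxcl16 and had an FPKM of 1.49, 9.44 and 4.47 in the omentum and 22.9, 26.2 and 14.7 in the mesentery. Like Cxcl16 it was lowest in naive omentum and highest at 24 h within each tissue, and the ratio of Cxcl16 to Zmynd15 lay between 13.5 and 21.0 in the omentum and between 5.71 and 7.78 in the mesentery. Art3, an ADP-ribosyltransferase gene, overlaps Cxcl10 over 133 exonic bases and overlaps Cxcl11 without shared exonic bases, and it stayed between 0.229 and 2.25 FPKM. Cxcr6 lies within Fyco1 without shared exonic bases, and Fyco1 stayed between 2.28 and 5.92. Sdad1 and Nup54, the nearest genes on either side of the chromosome 5 cluster apart from Art3, differed from naive omentum by -0.28 and -0.43 at 24 h and by -0.03 and -0.12 at 7 d. Art3 differed from naive omentum by -0.33 at 24 h and 0.40 at 7 d. The 3 chemokine genes thus passed 2-fold in injected omentum, Cxcl11 only at low FPKM, and these 3 neighbours did not.

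Both receptors were lower in OM 24h than in naive omentum, where the ligands were higher. Cxcr6 had an FPKM of 11.9, 1.45 and 7.94 in the omentum and 35.0, 21.3 and 45.1 in the mesentery. Every omental library was below every mesenteric one, with OM 24h far below the rest. In FPKM OM 24h was 8.23-fold below OM 0h (log2 -2.40) and 14.7-fold lower than in the mesentery of that time (log2 -3.19). From OM 24h to OM 7d it was higher by 1.87, which left it -0.53 from naive omentum. OM was below MY by -1.48 when naive and by -2.37 at 7 d.

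Cxcr3, the receptor of CXCL9, CXCL10 and CXCL11, differed less. Its FPKM was 31.2, 15.0 and 22.7 in the omentum and 45.7, 28.1 and 59.0 in the mesentery. The 24 h library was the lowest of each tissue, and OM was below MY at each time, although naive omentum stood above MY 24h. The difference from OM 0h to OM 24h was -1.004, just past 2-fold, and it fell short after rescaling by the median ratio (-0.97) and with a pseudocount of 5 (-0.85). At 7 d it was -0.44 from naive omentum. Between tissues it was -0.54 when naive, -0.86 at 24 h and -1.34 at 7 d.

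In the mesentery both receptors followed the same course. Cxcr3 and Cxcr6 differed from MY 0h by -0.68 and -0.69 at 24 h and by 0.36 and 0.36 at 7 d, and from MY 24h to MY 7d they were higher by 1.04 and 1.05. The FPKM ratio of Cxcr3 to Cxcr6 was accordingly 1.31, 1.32 and 1.31 in the mesentery at 0 h, 24 h and 7 d. In the omentum the ratio was 2.61, 10.4 and 2.86, so that the receptors parted at 24 h.

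**Figure D2:**
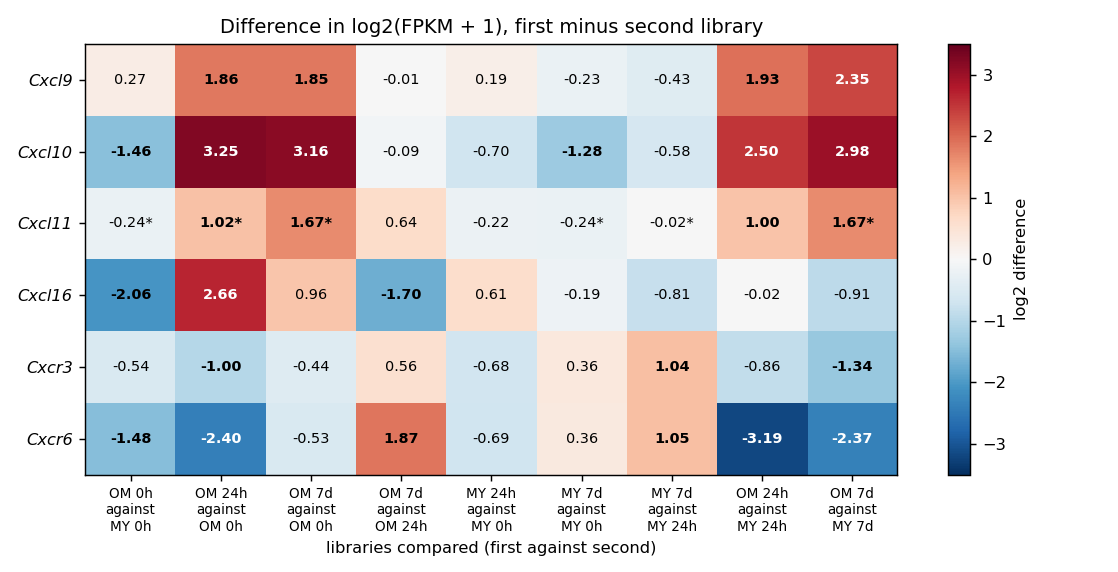
Difference in log2(FPKM + 1) of the 6 genes (lines) in the 9 comparisons (columns), as first minus second library, with red for higher and blue for lower in the first. Bold values pass 2-fold and an asterisk marks a difference that involves a library listed at 0; in OM 24h against OM 0h all 6 values are bold, and in MY 24h against MY 0h none is.

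The number of the 6 genes that differed was read against the share of all expressed genes that did. Between the naive tissues 3 of 6 differed by at least 2-fold, Cxcl10, Cxcl16 and Cxcr6, all lower in the omentum, where 16.2% of expressed genes differed in either direction. In OM 24h against OM 0h all 6 did, 4 ligands higher and 2 receptors lower, against 18.3% of genes. With a pseudocount of 5 this count was 4, without Cxcl11 and Cxcr3, against 8.92%. In OM 7d against OM 0h the 3 CXCR3 ligands were higher, 3 of 6 against 12.9%, and in OM 7d against OM 24h Cxcr6 was higher and Cxcl16 lower, 2 of 6 against 11.5%.

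In MY 24h against MY 0h 0 of 6 differed, where the background was 4.32%. In MY 7d against MY 0h only Cxcl10 did, lower, against 2.79%, and in MY 7d against MY 24h the 2 receptors did, higher, against 5.37%. Between tissues at 24 h the CXCR3 ligands were higher and Cxcr6 lower in the omentum, 4 of 6 against 24.1% of genes, and at 7 d Cxcr3 joined Cxcr6, 5 of 6 against 19.1%. Shares of 6 genes are coarse, and comparisons that use the same library are not independent of each other.

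Across all times 2 of the 6 genes had no overlap between tissues, Cxcl9 with all omental values above and Cxcr6 with all below the mesenteric ones. Among all expressed genes 34.4% had no such overlap, so this share was near the background. For Cxcl9 it also rested on a small gap, since OM 0h (8.20) stood just above MY 24h (7.75), and after rescaling to equal sums the order turned (13.2 against 13.5).

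Beside the other chemokines, Cxcl10 held a higher rank in injected than in naive omentum. Among 30 expressed chemokine ligand genes ranked by FPKM, Cxcl10 was 17th in OM 0h, 11th in OM 24h and 3rd in OM 7d, and 6th, 12th and 8th in the mesentery. Cxcl16 was 11th, 6th and 10th in the omentum and 3rd, 4th and 3rd in the mesentery. Cxcl9 stayed between the 13th and the 20th place and Cxcl11 between the 25th and the 29th. Ccl6 was the highest ligand in the omental libraries and Ccl5 in the mesenteric ones. Higher values in injected omentum were common to the family: 19 of 30 ligands were higher and 3 lower by 2-fold at 24 h (median 1.19), and 11 were higher and 2 lower at 7 d (median 0.56). Over all expressed genes 11.9% were higher and 6.45% lower at 24 h, and 11% higher and 1.96% lower at 7 d. Within the family Cxcl10 had the 4th largest log2 difference at 24 h and the 2nd at 7 d.

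Among 17 expressed chemokine receptors, Cxcr3 ranked 5th, 8th and 7th in the omentum and 2nd, 3rd and 2nd in the mesentery. Cxcr6 ranked 10th, 12th and 12th in the omentum and 4th at each time in the mesentery. At 24 h in the omentum 4 receptors were higher and 5 lower by 2-fold (median -0.32), and Cxcr6 had the 16th of the 17 differences when ordered from the highest. The shares of all expressed genes were 11.9% higher and 6.45% lower.

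**Figure D3:**
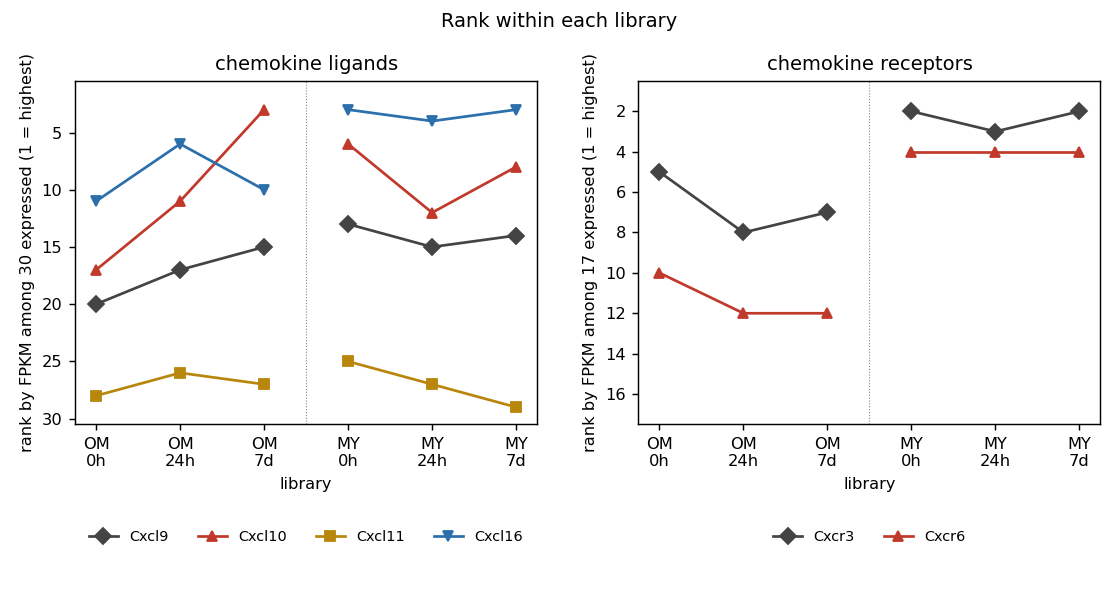
Rank by FPKM within each library of the 4 ligands among 30 expressed chemokine ligands (left) and of the 2 receptors among 17 expressed chemokine receptors (right), with rank 1 at the top and 1 point per library. Cxcl10 went from 17 to 3 in the omentum, and Cxcr6 stayed at 4 in the mesentery but between 10 and 12 in the omentum.

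Since CXCL9 and CXCL10 are interferon-inducible, the genes of the interferon pathways were read beside them. Ifng, which encodes interferon-gamma, had an FPKM of 7.27, 0.0219 and 5.05 in the omentum and 10.2, 4.21 and 3.92 in the mesentery, and it was thus lowest in OM 24h, where Cxcl9 and Cxcl10 were high. Of 14 genes of the interferon-gamma axis (cytokine, receptor, signalling and inducing cytokines), Ifngr2 and Il27 were higher and Ifng lower by 2-fold in OM 24h against OM 0h, with a median of -0.02 whose sign changed with the scaling. These 3 of 14 stand beside 18.3% of all expressed genes, a share near theirs. At 7 d Irf1, Il12b and Il27 were higher and 0 lower, with a median of 0.33, beside 11% of all expressed genes higher and 1.96% lower. Irf1, a transcription factor induced by interferon-gamma, measured 87.2, 88.5 and 176.4 FPKM in the omentum.

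Other interferon-gamma-inducible genes differed less than Cxcl9 and Cxcl10 at 24 h and more often at 7 d. Of 22 expressed genes of that list, mostly guanylate-binding proteins and immunity-related GTPases, 2 were higher and 0 lower in OM 24h against OM 0h (median 0.20) and 8 were higher and 0 lower in OM 7d against OM 0h (median 0.79). Of all expressed genes 11.9% were higher in the first comparison, so that 2 of 22 was not above the background, and 11.0% in the second. The immunity-related GTPase Iigp1 stood at 2.61, 15.3 and 23.8 FPKM in the omentum, and Gm12250, a gene of the same family, at 6.58, 18.5 and 21.3. Most of the list, such as Gbp2 (0.56 at 24 h and 0.73 at 7 d), moved by less than 2-fold. The log2 difference of Cxcl10 at 24 h was above that of every gene of this list, and that of Cxcl9 was below Iigp1 (2.18) alone. When naive, 9 of the 22 genes were lower and 0 higher by 2-fold in OM than in MY (median -0.70), beside 8.05% of all expressed genes lower.

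Among 21 type I interferon-stimulated genes, those that passed 2-fold in the injected omentum were all higher: 9 were higher and 0 lower at 24 h (median 0.73) and 8 were higher and 0 lower at 7 d (median 0.72), against the same 11.9% and 11.0% of all genes. Some stayed within 2-fold on the lower side, such as the RNA sensor gene Ddx58 (-0.68 and -0.56). Isg15, a ubiquitin-like modifier, had an FPKM of 23.4, 74.1 and 57 in the omentum and 69.6, 41.5 and 26.1 in the mesentery, and Irf7, a transcription factor of the type I response, stood at 27.9, 110.7 and 61.1 in the omentum. In the mesentery 0 of the 21 genes were higher and 2 were lower at 24 h (median -0.34), and 0 were higher and 5 lower at 7 d (median -0.57). By 2-fold, naive omentum was below naive mesentery for 8 genes and above it for 0. The shares of all expressed genes that were lower were 1.52% and 2.29% in the mesentery at 24 h and 7 d. In naive omentum against naive mesentery the share was 8.05%. Isg15 thus shared with Cxcl10 the low naive omental level, the higher levels after injection in the omentum and the lower levels after it in the mesentery. The median over all expressed genes was 0.01 between the naive tissues and 0.00 for OM 24h against OM 0h.

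**Figure D4:**
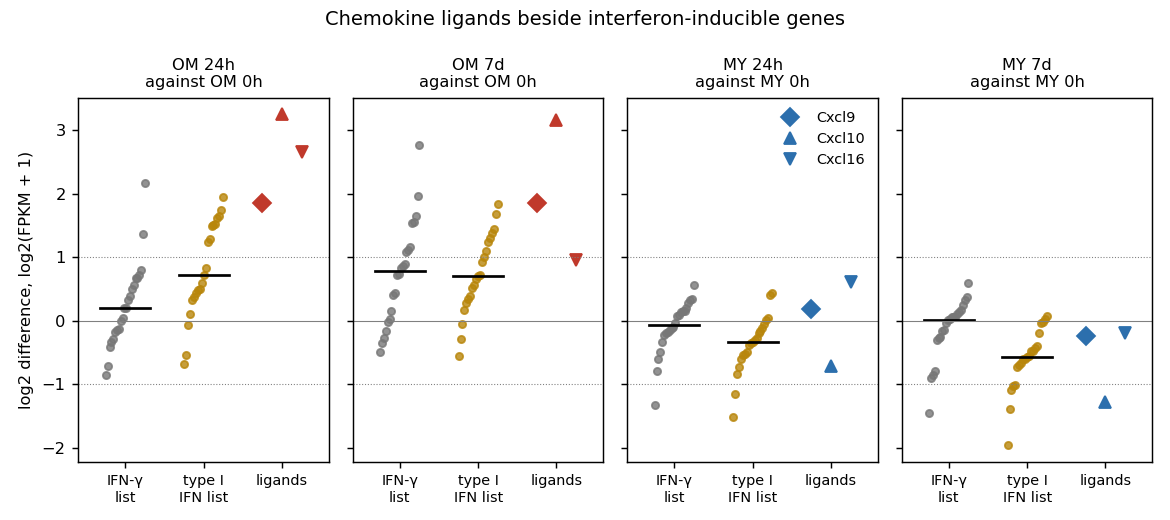
Difference in log2(FPKM + 1) from the naive library of the same tissue for interferon-gamma-inducible genes (grey), type I interferon-stimulated genes (gold) and Cxcl9, Cxcl10 and Cxcl16 (large symbols), with 1 point per gene, black bars at the list medians and dotted lines at 2-fold. In OM 24h the medians are 0.20 and 0.73 with Cxcl10 at 3.25, and in MY 7d Cxcl10 is at -1.28 with the type I list at a median of -0.57.

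Among genes that process or remove these ligands, only Dpp4 passed 2-fold within the omentum against its naive library. Adam10, a protease that sheds CXCL16, had an FPKM of 36.7, 55.2 and 39.8 in the omentum and 23.3, 25.1 and 39.3 in the mesentery, and Adam17, which also sheds it, differed from naive omentum by 0.55 at 24 h. Dpp4, the peptidase that truncates CXCL9, CXCL10 and CXCL11, stood at 28.0, 10.6 and 23.1 in the omentum and was lower by 2-fold in OM 24h (-1.32). Ackr3, a scavenger receptor for CXCL11, was at 3.95, 2.53 and 2.60 in the omentum and at most 0.493 in the mesentery. Of these 4 genes 0 were higher and 1 was lower at 24 h in the omentum, and 0 passed 2-fold at 7 d. At 24 h 6.45% of all expressed genes were lower, and a share of 4 genes is coarse.

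The receptors were read beside markers of the lymphocytes known to carry them. Of 12 genes of the type 1 lymphocyte programme (T-bet, eomesodermin, cytotoxic granule genes and cytokine receptors), 11 were lower and 0 higher by 2-fold in naive omentum than in naive mesentery (median -1.97). At 24 h in the omentum 10 were lower than naive and 0 higher (median -2.82), at 7 d 1 was lower and 0 higher (median -0.30), and from OM 24h to OM 7d 10 were higher (median 2.62). Over all expressed genes 8.05% were lower in naive omentum than in naive mesentery, and 6.45% and 1.96% lower at 24 h and 7 d. From OM 24h to OM 7d 7.03% were higher. Tbx21, which encodes T-bet, an inducer of Cxcr3, had an FPKM of 17.5, 1.57 and 16.4 in the omentum and 75.4, 36.5 and 35.6 in the mesentery. It was lowest in OM 24h, as Cxcr6 was.

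The 8 NK cell markers summed to 192.2, 28.6 and 116.0 FPKM in the omentum and 862.4, 490.0 and 409.8 in the mesentery, and the 10 T cell markers to 158.5, 31.8 and 150.8 and to 1277, 727.0 and 1508. Both sums were lowest in OM 24h and lower in every omental library than in every mesenteric one, as for Cxcr6. In OM 24h against OM 0h 7 of 8 NK markers (median -2.68) and 8 of 10 T cell markers (median -1.71) were lower by 2-fold and 0 were higher, and Klrc2 was listed at 0 in OM 24h. The share of all expressed genes that were lower there was 6.45%. From MY 24h to MY 7d, where both receptors were higher, 6 of 10 T cell markers were higher (median 1.06) and 2 of 8 NK markers lower (median -0.54). Over all expressed genes 1.84% were higher and 3.54% lower in that comparison. The part of lymphocytes in the receptor differences was not tested. Plasmacytoid dendritic cells also carry CXCR3, and their 7 markers summed to 369.9, 270.7 and 270.2 in the omentum and to between 285.6 and 295.7 in the mesentery, mostly from Bst2 and Spib. The members did not move together: Siglech, their defining lectin gene, stood at 1.15, 0.574 and 1.03 in the omentum and 29.9, 68.9 and 30.1 in the mesentery, and 3 of the 7 were higher and 2 lower by 2-fold in naive omentum than in naive mesentery. The shares of all expressed genes there were 8.18% higher and 8.05% lower.

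**Figure D5:**
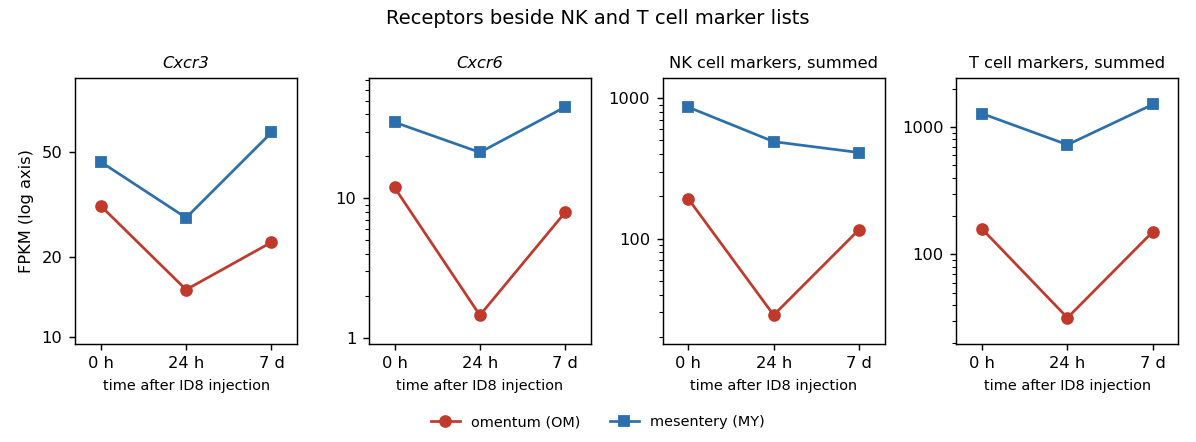
FPKM on log axes, against time after ID8 injection, of Cxcr3, Cxcr6 and the summed FPKM of 8 NK cell and 10 T cell markers, with 1 point per library, the omentum in red circles and the mesentery in blue squares. OM 24h is the lowest point in each panel, at 15.0, 1.45, 28.6 and 31.8, and from 24 h to 7 d in the mesentery the T cell sum is higher and the NK sum lower.

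Where the CXCR3 ligands were higher, in injected omentum, markers of several cell types also differed from naive, in both directions. In OM 24h against OM 0h 7 of 8 mesothelial markers were higher (median 3.09), and at 7 d all 8 were (median 3.33). The list holds Krt8 and Krt18, and the paper stained ID8 cells in the omentum for the keratins of these genes. In injected omentum the keratin genes thus cannot tell mesothelial RNA from RNA of the injected cells, and the part of each was not tested. Msln, which encodes mesothelin, stood at 5.27, 53.8 and 59.2 FPKM in the omentum and at or below 0.128 in the mesentery. The macrophage markers were higher at 24 h (7 of 9, median 1.81) and not at 7 d (0 of 9, median -0.36), and the neutrophil markers were higher for 6 of 6 at 24 h and 2 of 6 at 7 d. Beside these, 11.9% of all expressed genes were higher at 24 h and 11% at 7 d. Lower at 24 h were 7 of 8 NK cell, 8 of 10 T cell and 6 of 6 B cell markers, beside 6.45% of all expressed genes. Fibroblast markers were higher for 0 of 6 and lower for 1 at 24 h, and higher for 4 at 7 d. In the mesentery, where mesothelial markers stayed near 0 (Wt1 at 0 in MY 0h and MY 7d, Upk1b at 0 in MY 0h, Lrrn4 at 0 in MY 24h), Cxcl10 was present at 13.9 to 35.1 FPKM. The part of each cell type in the ligand differences was not tested.

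Over the 6 libraries, Pearson's r of log2(FPKM + 1) between members and the 7998 genes that reached 10 FPKM in at least 1 library gave the genes most alike in pattern, as a description over few points that share tissue and time. For Cxcl9 these were Baiap2l1, Tnfrsf12a, Irg1, Afap1l2 and Ugp2 (r of 0.994 to 0.996). Irg1, which encodes the itaconate-producing enzyme of activated macrophages, had an FPKM of 0.619, 11.3 and 9.51 in the omentum and at most 0.375 in the mesentery, and Tnfrsf12a, the TWEAK receptor, 6.50, 67.5 and 62.7. For Cxcl10 they were Cyb5, Nsmf, Errfi1, Ifit3 and Tpd52l2 (r of 0.98 to 0.99). Ifit3, an interferon-stimulated gene, stood at 6.86, 18.1 and 19.5 in the omentum and 12.5, 8.63 and 8.71 in the mesentery.

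For Cxcl11 they were Fam84b, Unc45b, Inha, Smyd2 and Rdh10, and for Cxcl16 Fblim1, Cttnbp2nl, Cpne2, Akr1c13 and Smox, with r of 0.986 to 0.996 over these genes. Fblim1, a filamin-binding protein gene, shared the low naive omentum and the 24 h peak of Cxcl16 at 1.05, 10.3 and 2.35 FPKM in the omentum and 6.98, 11.9 and 5.90 in the mesentery. For Cxcr3 they were Trmt10c, Cwc27, Med14, Prkd2 and Gabpb1, and for Cxcr6 they included Tox, Mef2b, Zcchc8 and Cd7, with r of 0.988 to 0.996. Tox, a transcription factor gene of lymphocyte development, had an FPKM of 3.69, 0.342 and 3.17 in the omentum and 11.7, 7.30 and 12.2 in the mesentery. Between members, r was 0.92 for Cxcl9 with Cxcl10 and 0.95 for Cxcr3 with Cxcr6, while Cxcl16 had r of -0.04 with its receptor Cxcr6.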

How the data were processed

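Cells sorted from omental and mesenteric tissue were sequenced as 6 libraries, 1 per condition. The authors checked reads with FastQC 0.11.4, aligned them to mm9 with STAR 2.4.2a and deposited FPKM per gene symbol, which their methods credit to Cufflinks. FPKM carry no read counts, so no count test was run and the precision of single values is unknown. Every column of the table was used. Groups came from the labels. Differences in log2(FPKM + 1) between 2 libraries were computed for 9 comparisons with Python 3.11.15, numpy 2.4.6 and pandas 2.3.3, and drawn with matplotlib 3.10.9. Genes that reached an FPKM of 1 in any library were counted as expressed, and 2-fold differences were counted. The steps were tested on simulated data. Named genes are the 6 members, genes of 18 lists, overlapping or nearest genes, the 5 genes most alike in pattern, and the top ligand of each library, and Cd74, chosen after its value was seen. Some genes that this rule names are not reported here. Members and lists were chosen with earlier results of these data known. Marker and pathway lists were matched by symbol. Positions are from GENCODE M1, which is not the authors' annotation, and promoters from RefSeq. Relative depth was the commonest ratio of FPKM below 0.1, with a lesser peak at double that ratio. Alternatives were pseudocounts of 0.1 and 5, 2 rescalings and 2 filters on low values.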

Additional observations from a re-analysis of the deposited data

Results flagged for a closer look

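Cxcl10 moved in opposite directions in the tissues after injection, and this difference was not tested, because each condition has 1 library. At 24 h its log2 difference from naive was 3.25 in the omentum and -0.70 in the mesentery, 3.96 apart. At 7 d it was 3.16 and -1.28, 4.44 apart. Of the 13064 expressed genes, 189 (1.45%) at 24 h and 214 (1.64%) at 7 d moved by 1.5-fold or more in each tissue, upward in one and downward in the other. The 2 times share the naive libraries and are not independent. Naive omentum had the lowest Cxcl10 value of the omental libraries and naive mesentery the highest of the mesenteric ones, so each tissue's difference rests on its naive library.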

How the results depend on the processing

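No paired analysis was possible because there was a single library for every condition. With no replicate spread, a count was taken as unchanged within 1.5 times and a log2 difference within 0.58. Of 56 counts of members recomputed, 52 were unchanged by this rule, which lets small counts shift. The 6 genes of OM 24h against OM 0h became 4 with a pseudocount of 5, without Cxcl11 and Cxcr3. They became 5 after the median-ratio rescaling, without Cxcr3, and 5 where both libraries had to reach 1 FPKM, without Cxcl11. With a pseudocount of 5, OM 7d against OM 0h gave 2 genes in place of 3 and OM 7d against MY 7d gave 4 in place of 5. With a pseudocount of 0.1, MY 24h against MY 0h gave 1 gene in place of 0 and MY 7d against MY 0h gave 2 in place of 1, in both cases through Cxcl11. With a pseudocount of 5, MY 7d against MY 24h gave 0 in place of 2, as both receptors fell to just under 2-fold (0.95 and 0.93), while Cxcr6 in OM 24h against OM 0h stayed past it at -1.39. Rescaling to a sum of 1000000 left 1 gene apart between tissues at all times in place of 2, as Cxcl9 came to overlap. Of 216 log2 differences, 199 were unchanged, including all 54 under the median-ratio rescaling, and 4 changed sign, 0 of them of a size of at least 1. The filters on low values left each count within 1.5 times. Rescaling to equal sums shifted the median of all genes by over 0.1 in several comparisons, to 0.36 from 0.05 for OM 7d against OM 24h and to -0.17 from 0.00 for OM 24h against OM 0h, where the 1554 genes higher and 842 lower by 2-fold became 1403 and 1378. The paper gives a range of reads per sample but not the depth of each library. The reads behind low values such as those of Cxcl11 are thus unknown, and differences at such levels were not detectable with any stated precision.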

Other observations

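The other marker lists give values for cells not described above. The 6 B cell markers summed to 4093, 937.5 and 2540 FPKM in the omentum and 846.8, 562.8 and 1621 in the mesentery, and all 6 were lower by 2-fold in OM 24h against OM 0h. In that comparison 6.45% of all expressed genes were lower. The 7 monocyte markers summed to 786.2, 1357 and 1461 in the omentum and to between 405.4 and 514.8 in the mesentery. The 10 conventional dendritic cell markers summed to 592.7, 418.9 and 361.1 in the omentum and 741.1, 1067 and 874.8 in the mesentery, but their members differed in opposite directions. Between the naive tissues 2 were higher in the omentum by 2-fold, Cd209a (log2 4.38) and Clec10a (2.98), and 2 lower, Ccr7 (-2.48) and Itgae (-2.56), with a median of -0.09. The shares of all expressed genes were 8.18% higher and 8.05% lower. The 5 plasma cell markers were lowest in MY 24h, at 104.4, against 656.6 before injection and 1102 at 7 d. The 7 innate lymphoid cell markers, of which 5 were expressed, summed to 16.7, 8.36 and 20.7 in the omentum and 54.2, 67.5 and 83.3 in the mesentery. The 5 endothelial markers, of which 3 were expressed, summed to between 9.53 and 47.1 over all libraries. Most of that sum came from Pecam1 (8.85 to 45.2), and the other endothelial markers stayed at or below 4.53.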
